A study of Mus musculus with 11 samples.

Results

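Transcripts of 5 peptide hormones made by colonic L cells, Gcg, Insl5, Nts, Cck and Sct, were followed through sorted endocrine cells of the mouse colon after estradiol. They were chosen by name, as the L-cell hormones other than peptide YY, and are 5 of the 49997 gene symbols listed in each of the tables, an L-cell table and a table of enterochromaffin (EC) cells, which make serotonin. All donors were ovariectomised C57BL/6 females of 10 to 14 weeks. L cells came from Cck-Cre;R26LSL-tdTomato mice, in which Cre under control of Cck turns on a red reporter, given sesame oil (vehicle, 2 libraries) or estradiol benzoate (EB, an ester of estradiol, 3 libraries) 4 hours before isolation, with about 7000 cells per treatment group. EC cells came from ovariectomised mice of a line named ECFLTG, given vehicle (2 libraries) or EB (4 libraries), with at least 500 cells per sample; the labels give no hours after treatment for them. Because Cck chose the L cells through its Cre, the presence of Cck in those libraries is no result. Nothing in the labels ties replicate libraries to different animals. A p-value here therefore reflects the spread among these samples alone, and part of that spread may be technical.

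Gcg encodes proglucagon, which prohormone convertase 1 cuts in L cells into the glucagon-like peptides, hormones of insulin release and mucosal growth. Insl5 is a relaxin-family peptide of the distal colon that acts on the receptor Rxfp4, and neurotensin, from Nts, acts on gut motility through Ntsr1. Cck and secretin, the product of Sct, are classically hormones of the upper small intestine that drive the gallbladder and pancreas, and colonic L cells of the mouse are known to hold their transcripts too.

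The libraries held far more than L-cell transcripts. From 27658579 to 31449447 reads were counted per L-cell library, and the 5 hormones took 0.00942% to 0.140% of them, whereas 12 colonocyte markers took 5.47% to 8.98%. In EC-cell libraries, with 4955808 to 10640921 reads, the 5 hormones took 0.0466% to 0.967% and 9 EC-cell markers 0.814% to 12.4%. All 5 had reads in all 11 libraries. The Schwann-cell and glial marker Sox10 was at 0 in all 5 L-cell libraries, and the stromal marker Lum was at 0 in all 6 EC-cell libraries. In L cells, vehicle replicate 2 stood apart with 0.0270% of reads from 6 stromal markers, against at most 0.000745% in the other 4 libraries. In such bulk samples, fewer cells of a type and less RNA per cell cannot be told apart, nor can it be seen whether hormones shared a cell.

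The 100 bases before each annotated start of the 5 genes are given below. How alike these promoters are was not measured. Sequences are RefSeq's, build GRCm38.p6, written 5′ to 3′ on the minus strand, where all 5 genes lie, and capitals mark TATAAA where it reads in the direction of the gene. Insl5 has 2 annotated starts.
Gcg (chr2:62483654-62483753): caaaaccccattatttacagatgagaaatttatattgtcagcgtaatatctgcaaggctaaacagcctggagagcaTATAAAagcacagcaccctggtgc
Insl5, outer start (chr4:103027272-103027371): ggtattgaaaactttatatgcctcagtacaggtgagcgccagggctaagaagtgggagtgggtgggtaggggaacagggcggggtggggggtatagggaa
Insl5, inner start (chr4:103026729-103026828): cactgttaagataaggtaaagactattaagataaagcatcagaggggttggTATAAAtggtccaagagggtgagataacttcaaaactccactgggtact
Nts (chr10:102490419-102490518): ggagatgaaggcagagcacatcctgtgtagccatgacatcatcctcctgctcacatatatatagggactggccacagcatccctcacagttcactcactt
Cck (chr9:121495695-121495794): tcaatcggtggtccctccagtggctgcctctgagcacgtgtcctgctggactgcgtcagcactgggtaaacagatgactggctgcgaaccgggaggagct
Sct (chr7:141279134-141279233): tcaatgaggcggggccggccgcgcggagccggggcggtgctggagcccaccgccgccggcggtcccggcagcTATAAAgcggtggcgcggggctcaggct

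TATAAA began 24 bases before the start of Gcg, 28 before that of Sct and 49 before the inner start of Insl5. Over 250 bases upstream, on either strand, 4 of the 6 windows held TATAAA, as did 12.4% of 32851 mouse promoter windows. CANNTG, the E-box letters read by factors such as Neurod1, was in all 6 windows and in 66.2% of all promoters. TAAT, a core read by many homeodomain factors, was in 5 of the 6 (all but Cck) and in 54.9% of all. The half-site GGTCA of the estrogen response element was in 2 (Sct and the inner start of Insl5) and in 35.2% of all. The full element, GGTCA followed after 3 free bases by its reverse complement, was in 0 of the 6 windows and in 0.0639% of all promoters. These matches are letters in a window; matches to TATAAA and TAAT can share bases, and each full element holds GGTCA.

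In L-cell libraries the first question was whether the hormones differed between EB and vehicle. Gcg measured 2399 and 2064 normalised counts in vehicle against 2869, 9982 and 24283 in EB, in the order of replicates 1 to 3. All 3 EB libraries lay above both vehicle libraries, but EB replicate 1 was much nearer to vehicle than to EB replicate 3. Group means were 2232 ± 236 (SD, n = 2) and 12378 ± 10907 (SD, n = 3). The log2 fold change of Gcg was 1.99 ± 0.73 (SE), with an adjusted p of 0.358 in limma with Benjamini-Hochberg adjustment over 16217 genes.

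Insl5 had the largest estimate among the 5. It measured 77.7 and 22.4 in vehicle against 165, 408 and 888 in EB, so that every EB library was above both vehicle libraries. Its log2 fold change was 3.19 ± 0.73, with a 95% interval of 1.50 to 4.89 and a limma adjusted p of 0.218, and 1.16% of all genes tested had a smaller p. Cck, at 48.9 and 34.7 in vehicle and 81.4, 199 and 399 in EB, had a log2 fold change of 2.15 ± 0.61 and a limma adjusted p of 0.258. Such values stand for 31 to 442 reads of Cck per library, so Cck was the rarest of the 5 per exon length in every L-cell library although its Cre marked the cells.

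Sct showed the same steps between libraries at a higher level, with 1540.3 and 724 in vehicle and 1698, 5286 and 8091 in EB. Its log2 fold change was 1.98 ± 0.61, with a limma adjusted p of 0.286. The gap between its groups rested on 1698 in EB replicate 1 against 1540.3 in vehicle replicate 1. Nts was the exception to the separation of groups, since it measured 1761 and 238 in vehicle against 1456, 4199.9 and 5843 in EB. Its log2 fold change of 2.35 ± 0.83 had a limma adjusted p of 0.343. It moved to 3.79 when vehicle replicate 1 was left out and to 0.90 when vehicle replicate 2 was, and that of Gcg moved to 1.27 without EB replicate 3.

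Values of all 5 hormones were thus higher in EB on average, and 0 of the 5 passed the test, which called 0.0247% of all genes. Before adjustment, 1875 of the 16217 genes had a limma p under 0.05, all 5 hormones among them. DESeq2, which called 519 of the 16217, passed Insl5 and Cck (DESeq2 adjusted p of 0.0390 and 0.00772). None of the 5 passed in edgeR, which called 0 genes. In 4 of 5 cases the EB libraries all lay above the vehicle libraries, as they did for 14.3% of all genes tested. None of the 5 entered the test through EB libraries alone, since the lowest vehicle value of any was 22.4. The libraries ran in nearly one order: EB replicate 3 was highest, EB replicate 2 next and vehicle replicate 2 lowest for all 5 hormones, and also for Pyy. From lowest to highest library the span was 11.8-fold for Gcg, 11.5-fold for Cck, 11.2-fold for Sct, 24.6-fold for Nts and 39.6-fold for Insl5.

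**Figure D1:**
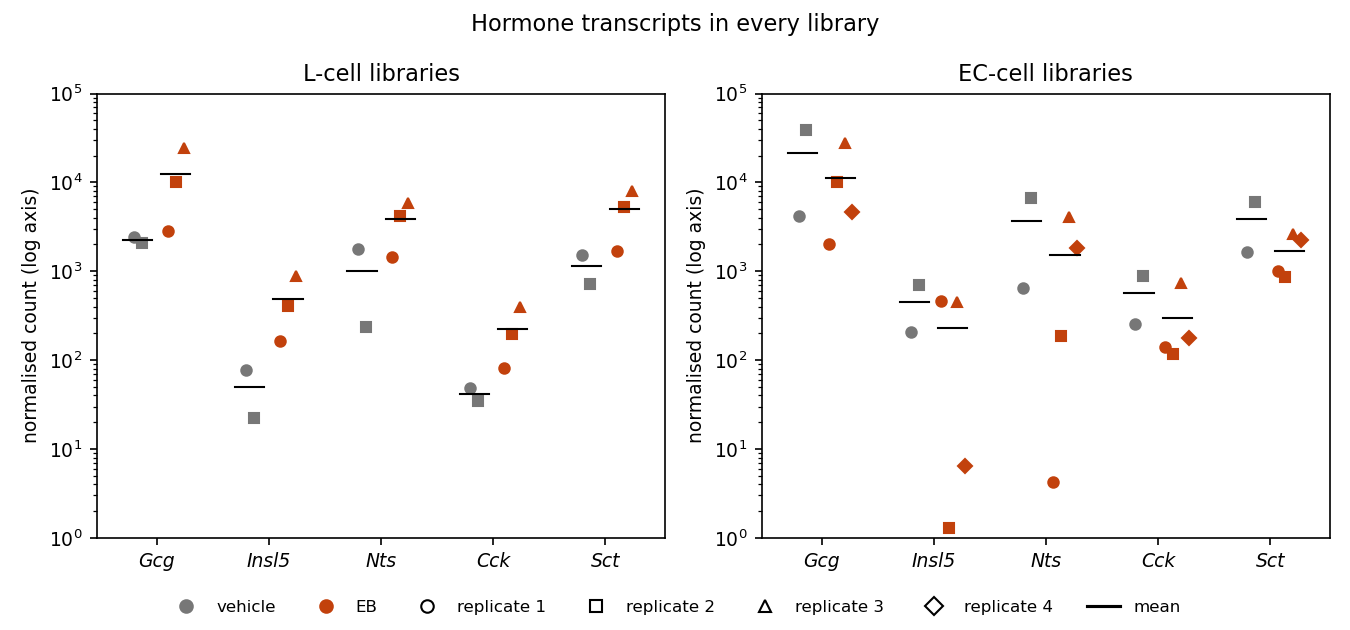
Normalised counts (log axis) of the 5 hormone transcripts in each L-cell library (left) and EC-cell library (right), with vehicle in grey, EB in orange, a marker shape per replicate and a bar at the group mean. In L cells the EB points lie above the vehicle points for all but Nts; in EC cells the groups overlap for all 5, and Insl5 and Nts drop to under 10 in some EB libraries.

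Other transcripts varied with the same libraries. The share of reads from 10 pan-endocrine genes, such as the granins Chga and Chgb, was 0.00350% and 0.000798% in vehicle against 0.00655%, 0.0276% and 0.0332% in EB. Colonocyte markers, all 12 with reads in every library, ran from 7.35% to 8.98% in vehicle and from 5.47% to 5.92% in EB. Goblet markers (8 of 8 with reads) ran from 0.596% to 1.20% in vehicle and from 1.20% to 2.47% in EB, where the groups overlapped, and markers of stem and progenitor cells (6 or 7 of 7 with reads) from 0.00155% to 0.00231% and from 0.00545% to 0.00687%. Summed shares of marker lists for other endocrine cells were also higher in every EB library than in both vehicle libraries. The EC-cell list (7 to 9 of 9 with reads) took 0.00754% and 0.00823% in vehicle and 0.0132%, 0.0258% and 0.0286% in EB. It shares Chga and Chgb with the 10 pan-endocrine genes, and these 2 reached 2578 and 2782 normalised counts. Its other genes reached less or varied less: Tph1 ran from 31.4 to 454, Slc18a1 from 144 to 401 and Ddc from 1644 to 2374. Tac1, Lmx1a, Fev and Trpa1 reached at most 35.2. The D-cell markers Sst and Hhex took 0.000707% and 0.000322% in vehicle and 0.001001%, 0.00700% and 0.00639% in EB. The part of these shifts in the hormone values was not tested.

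A ratio within a library removes its scaling. Against Pyy, the peptide YY gene that L cells express beside Gcg, the hormones of L-cell libraries moved little. The log2 ratio of Gcg to Pyy was -1.74 and -0.38 in vehicle against -1.96, -1.78 and -0.97 in EB, with overlapping groups. For Nts it was -2.19 and -3.49 in vehicle against -2.94, -3.02 and -3.03 in EB, so the EB libraries sat together between the vehicle libraries. The ratio of Insl5 was higher in every EB library, at -6.07, -6.38 and -5.75, than in vehicle, at -6.67 and -6.84, a difference of 0.69. The ratio of Sct was lower in every EB library, at -2.72, -2.69 and -2.56, than in vehicle, at -2.38 and -1.89, a difference of -0.52. Exact two-sided permutation tests gave p = 0.2 for Insl5 and for Sct, the smallest p that 3 against 2 libraries allow, and 0.4 to 0.8 for the others. The share of all genes whose ratio to Pyy separates the groups was not computed, so these separations have no background to be set against.

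Against the geometric mean of the 10 pan-endocrine genes, 4 of the 5 hormones had lower average ratios in EB than in vehicle. The log2 difference was -0.95 for Gcg, -0.60 for Nts, -0.79 for Cck and -0.96 for Sct, and 0.25 for Insl5. Among the 5, only the ratio of Sct separated the groups, with 4.78 and 5.52 in vehicle and 4.37, 4.04 and 4.16 in EB (exact permutation p = 0.2). The ratio of Pyy did so too, with 7.16 and 7.41 in vehicle and 7.09, 6.73 and 6.72 in EB (exact permutation p = 0.2). For this reference, too, the share of all genes with separated groups was not computed. Insm1, among the 10 reference genes, was near the floor, with 2 reads in each vehicle library and 1 in EB replicate 1. With Chga alone as the reference the differences were -2.03 for Gcg, -1.67 for Nts, -1.87 for Cck and -2.04 for Sct, and that of Insl5 turned to -0.83. The vehicle libraries decided much of the size against the 10 genes. Without vehicle replicate 1 the difference was -1.76 for Gcg, -1.46 for Cck and -0.070 for Nts, and without vehicle replicate 2 it was -0.14, -0.12 and -1.13.

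**Figure D2:**
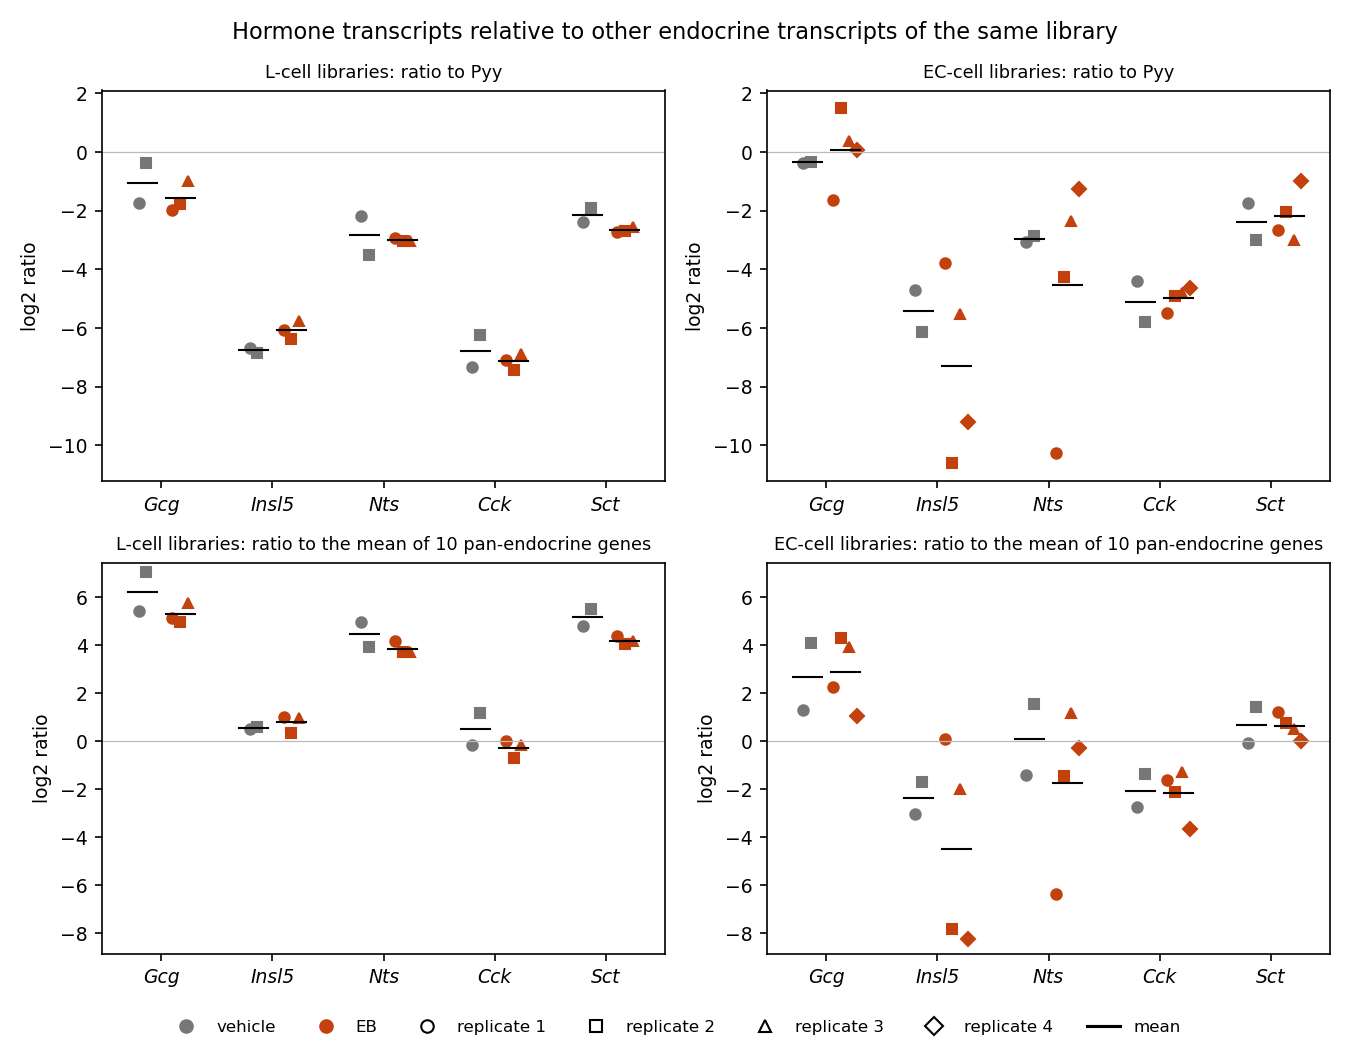
Log2 ratio of each hormone transcript to Pyy (top) and to the mean of 10 pan-endocrine genes (bottom) in each library of L cells (left) and EC cells (right), with vehicle in grey, EB in orange and a bar at the group mean. L-cell points of a hormone lie within about 2 log2 units of each other, whereas Insl5 and Nts spread over 6 or more in EC cells.

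Per kilobase of exon, in the GENCODE M21 annotation, Sct and Gcg led in every L-cell library. The order was Sct, Gcg, Nts, Insl5, Cck in 3 libraries and Gcg, Sct, Nts, Insl5, Cck in the other 2. Sct ran from 34.3 to 79.3 RPKM (reads per kilobase of exon at a common library total) in vehicle and from 94.7 to 443 in EB. Gcg ran from 42.2 to 53.3 and from 69.1 to 575, so these neighbours did not differ beyond their spread. Nts ran from 5.82 to 46.8 and from 42.0 to 165.5 and overlapped Gcg. Insl5, from 0.946 to 3.56 and from 8.19 to 43.4, overlapped Cck, from 0.813 to 1.25 and from 2.24 to 10.8, in both groups, although Insl5 was the higher of the 2 within each library. As a share of the 5, Sct held between 35.8% and 43.8% in all L-cell libraries, Gcg between 28.9% and 50.2% and Cck between 0.676% and 1.04%. Insl5 made up 1.12% and 1.93% of the 5 in vehicle and 2.98% to 3.79% in EB.

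**Figure D3:**
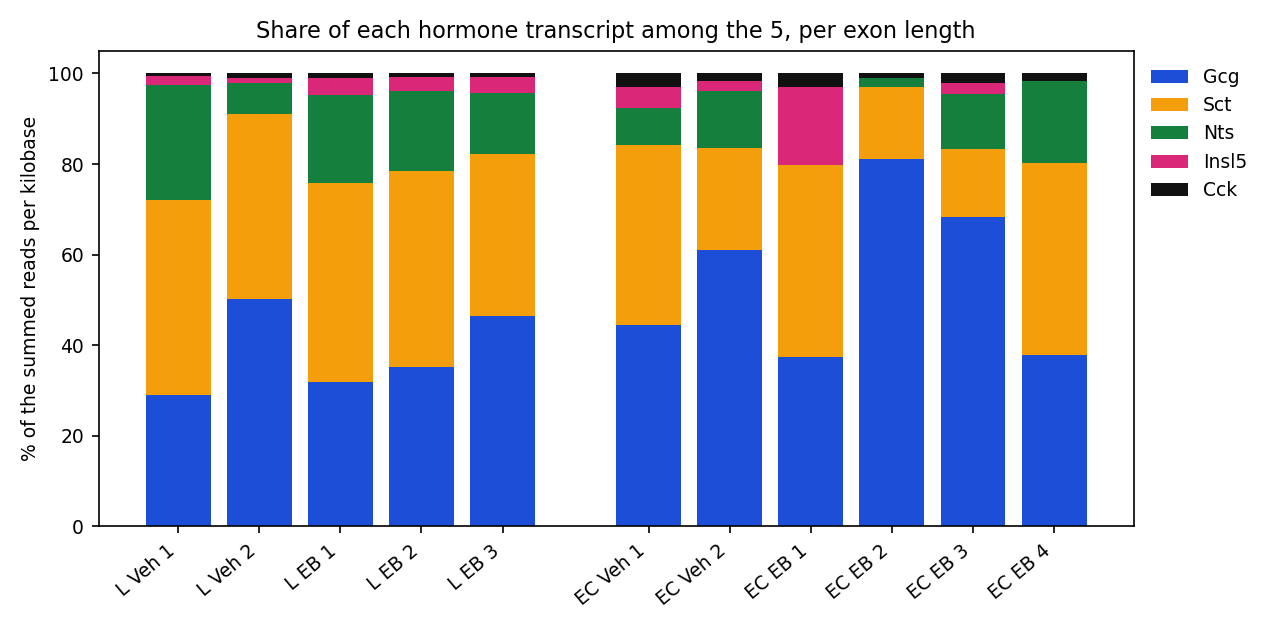
Share of each hormone transcript in the summed reads per kilobase of exon of the 5, as stacked bars (%) for each library. In L cells the widest ranges are those of Gcg, at 28.9% to 50.2%, and Nts, at 6.92% to 25.4%; in EC cells the Insl5 segment is 17.3% in EB replicate 1 and too thin to see in EB replicates 2 and 4.

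The same comparison was made in EC-cell libraries. Gcg measured 4233 and 38536 in vehicle against 2051, 10171, 27529 and 4599 in EB, replicates 1 to 4. Of the EB libraries, 3 lay between the vehicle libraries and replicate 1 lay below both. The log2 fold change was -0.83 ± 0.99 with a limma adjusted p of 0.916. Leaving out vehicle replicate 2 turned it to 0.76, and leaving out vehicle replicate 1 gave -2.43. It was -0.23 with EB replicate 1 left out, -1.48 with EB replicate 3 left out and -0.18 with EB replicates 1 and 2 left out.

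Insl5 had 209 and 694 in vehicle and 459, 1.30, 456 and 6.40 in EB. The low libraries held 1 and 8 reads of Insl5, and the others 327 to 629. Its log2 fold change was -3.13 ± 1.95 (limma adjusted p = 0.905), or -1.72 without EB replicate 2. On the recovered reads edgeR gave -0.97 for Insl5 and -1.26 for Nts, as did DESeq2, and neither hormone passed. Nts had 653 and 6672 in vehicle and 4.21, 188, 4092 and 1822 in EB, where 4.21 stands for 3 reads. Its log2 fold change of -2.84 ± 1.97 (limma adjusted p = 0.905) moved to -0.90 when EB replicate 1 was left out and to 0.39 when EB replicates 1 and 2 were. Omitting vehicle replicate 1 gave -4.51 and omitting vehicle replicate 2 gave -1.16.

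EB replicate 2 was the lowest EC-cell library for Insl5, Cck and Sct, and EB replicate 1 was the lowest for Gcg and Nts and the next lowest for Cck and Sct. The hormones were not all low in either, since EB replicate 2 held 1 read of Insl5 and 7805 of Gcg, and EB replicate 1 held 3 reads of Nts and 327 of Insl5. Insl5 was 17.3% of the per-length signal of the 5 hormones in EB replicate 1, 0.0214% in EB replicate 2 and 0.109% in EB replicate 4, against 2.27% and 4.53% in vehicle. Nts was 18.0% in EB replicate 4 and 0.0919% in EB replicate 1, and Gcg ranged from 37.4% to 81.0% over the 6 libraries. The order of the hormones accordingly took 4 forms in 6 libraries, with Gcg or Sct first in each.

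Cck and Sct varied less in EC-cell libraries. Cck had 256 and 881 in vehicle and 140.4, 119, 744 and 176 in EB; the log2 fold change was -1.13 ± 0.82 (limma adjusted p = 0.905). Omitting vehicle replicate 1 or 2 moved it to -2.02 or -0.24. It was -1.72 with EB replicate 3 omitted and -0.39 with EB replicates 1 and 2 omitted. Sct had 1637 and 6084 in vehicle and 1004, 872, 2624 and 2218 in EB; the log2 fold change was -1.07 ± 0.63 (limma adjusted p = 0.905). It moved to -2.02 or -0.12 when vehicle replicate 1 or 2 was omitted, and to -0.39 when EB replicates 1 and 2 were. Vehicle replicate 2 was the highest EC-cell library for all 5 hormones, and the groups overlapped for all 5. None of the 5 passed the test, which called 0% of 15287 genes in EC cells; before adjustment 542 genes had a p under 0.05, none of the 5 among them, while edgeR called 0 genes and DESeq2 15.

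Within EC-cell libraries, ratios to Pyy overlapped between groups for all 5 hormones. That of Cck kept to -5.78 to -4.41 over the 6 libraries and that of Sct to -3.00 to -0.97, and that of Gcg ran from -1.64 in EB replicate 1 to 1.50 in EB replicate 2. Exact permutation p-values ran from 0.667 to 0.933, where 0.133 is the smallest that 4 against 2 libraries allow. Pan-endocrine genes took 6.62% and 8.15% of reads in vehicle and 0.745%, 1.03%, 4.14% and 11.6% in EB, and colonocyte markers 0.228% and 0.823% in vehicle and 2.56%, 2.60%, 0.742% and 0.441% in EB. The part of these shares in the hormone values was not tested.

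The difference between the cell types, taken as the EB effect in L cells less that in EC cells, was positive for all 5 hormones. It was 3.05 ± 1.06 for Sct, with a 95% interval of 0.72 to 5.38, and 3.28 ± 1.31 for Cck, with an interval of 0.40 to 6.17. For Gcg it was 2.83 ± 1.62, for Nts 5.18 ± 3.13 and for Insl5 6.33 ± 2.89, each with an interval that held 0. The limma adjusted p was 0.862 for each of the 5. All groups shared an estimate of spread in this fit, and the intervals rest on it. Cell type went together with mouse line, read depth and separate normalisation, and no hours after treatment are given for EC cells. These cannot be told apart from cell type here. The share of the 13802 genes that passed was 0%. Before adjustment 630 had a p under 0.05, Sct and Cck among them; edgeR called 0 and DESeq2 32. The difference became 4.42 for Gcg without EC vehicle replicate 1 and 1.23 without EC vehicle replicate 2. For Nts it became 3.24 without EC EB replicate 1 and 1.96 without EC EB replicates 1 and 2.

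**Figure D4:**
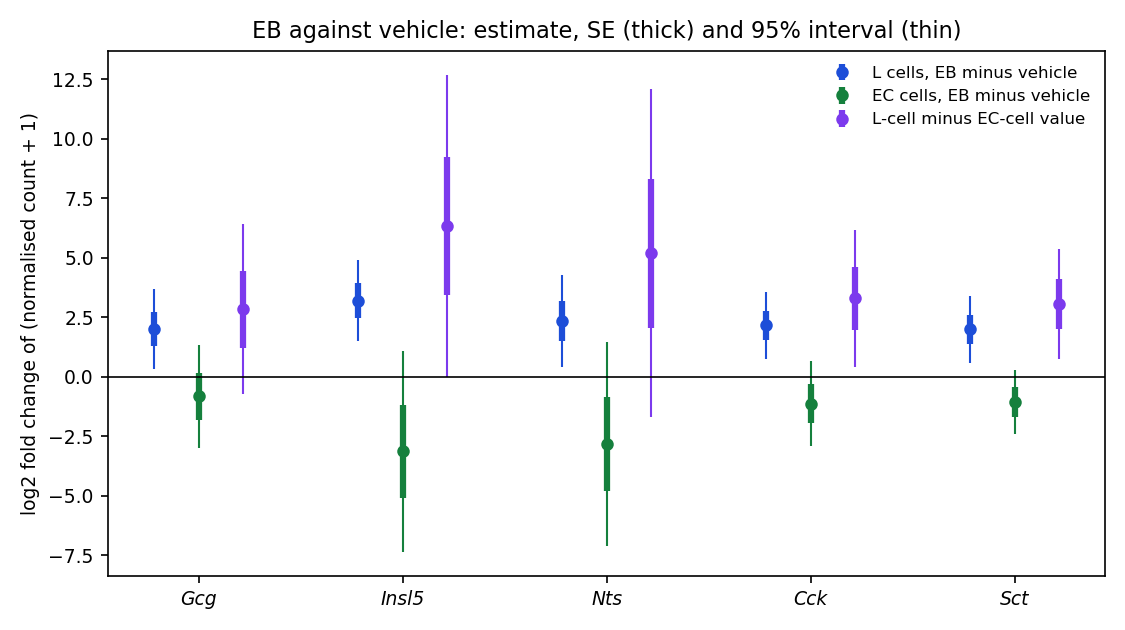
Log2 fold change of each hormone transcript (EB minus vehicle) in L cells (blue) and EC cells (green), and the L-cell value less the EC-cell value (purple), with points for estimates, thick bars for the SE and thin bars for the 95% interval. All 5 estimates are above 0 in L cells, from 1.98 to 3.19, and below 0 in EC cells, from -3.13 to -0.83, where every interval crosses 0.

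The tables were normalised separately, so levels across them are set side by side as reads scaled to one common library total (RPM), with no test. Under vehicle, Gcg took 63.1 and 79.7 RPM in L-cell libraries and 859 and 7052 in EC-cell libraries. Insl5 took 0.685 and 2.58 against 42.5 and 127, and Cck 1.06 and 1.62 against 52.0 and 161. Nts took 7.26 and 58.5 against 133 and 1221, and Sct 22.1 and 51.2 against 332 and 1113. For each of the 5, both vehicle EC-cell libraries were above both vehicle L-cell libraries, whose labels name the cell type known for these hormones.

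Genes with the most similar pattern were sought among 9632 that had a mean of at least 50 in both tables, by Pearson r of log2(value + 1) over all 11 libraries after each table was centred on its own mean. Gcg was nearest to Iapp, the amylin gene (r = 0.94), then to Map2, a microtubule protein gene, and Scgn, the gene of the calcium sensor secretagogin (r = 0.90 each). Cck was nearest to Etv1, a transcription factor gene of endocrine cells (r = 0.98), then to Scgn and Pyy (r = 0.95 each). Sct was nearest to Cpe, the gene of carboxypeptidase E (r = 0.98), Resp18 and Neurod1 (r = 0.96 each).

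Insl5 and Nts had other neighbours. Insl5 was nearest to Mira (r = 0.97), Chpt1, a phospholipid synthesis gene (r = 0.95), and Timeless, a replication fork gene (r = 0.94). Nts was nearest to Dmxl1 and the somatostatin receptor gene Sstr5 (r = 0.97 each) and to Mllt3 (r = 0.95). Between the hormones themselves r was 0.94 for Cck with Sct and 0.89 for Gcg with Cck, but 0.41 for Gcg with Insl5 and 0.22 for Insl5 with Nts. The points share libraries, their depth and their treatment groups, and the low EC-cell values of 1, 3 and 8 reads weigh heavily on the Insl5 and Nts patterns.

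Genes around the 5 hormones were grouped into receptors, prohormone processing, peptide breakdown, transcription factors and nutrient sensing, and none of them passed the limma test in either table. In L-cell libraries, only 2 of 10 receptor genes passed the filter. Sort1, which encodes the neurotensin-binding sorting receptor sortilin, measured 3807 and 3766 in vehicle against 3879, 4107 and 4178 in EB (log2 fold change 0.098). Glp1r, the receptor gene of glucagon-like peptide 1, stayed under 20 in all 5 libraries. In EC-cell libraries 4 of 10 passed, and Rxfp4, the receptor gene of Insl5, measured 89.3 and 168 in vehicle against 0, 0, 49.3 and 26.4 in EB; its log2 fold change was -4.34 ± 2.16 (limma adjusted p = 0.905). Its EB libraries all lay below vehicle, as for 6.3% of all genes tested in EC cells.

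Processing genes split in L-cell libraries. Cpe, which trims basic residues from cut prohormones, had 333 and 95.3 in vehicle against 369, 1525 and 2035 in EB, with a log2 fold change of 2.55 ± 0.75. Pcsk1n, whose product inhibits prohormone convertase 1, and Scg5, a convertase chaperone, had log2 fold changes of 2.22 ± 0.61 and 2.59 ± 0.65. The limma adjusted p of these genes lay between 0.231 and 0.273. Cpe, Pcsk1n and Scg5 also belong to the pan-endocrine genes above, so their values are not separate from that share. Pcsk1, the convertase that makes glucagon-like peptides, had a log2 fold change of 0.27 ± 0.24 and Pam, the amidating enzyme, 0.28 ± 0.18. The median of the 7 tested was 0.28, against -0.0022 for all genes; in EC-cell libraries it was -1.48, against -0.071, with Pcsk1n at -2.04 and Cpe at -1.77. Breakdown genes had medians of 0.018 in L cells and -0.11 in EC cells. Ece1, Mme and Nln, among them, had log2 fold changes of -0.18, 0.89 and 0.0065 in L cells. In EC cells they had -0.66 ± 0.47, 1.04 ± 1.92 and 1.52 ± 1.37. Mme was near the floor there, with 2.78 and 0 in vehicle and 18.3, 0, 12.1 and 0 in EB. Nln had 77.8 and 7.72 in vehicle and 147, 35.2, 90.7 and 63.2 in EB. Dpp4, whose product inactivates glucagon-like peptide 1, had 0.018 in L cells and -0.25 in EC cells.

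All 12 transcription factor genes passed the filter in both tables, 8 of them at 10 or more in both vehicle libraries of L cells. Neurod1, Rfx6 and Insm1 of this list also belong to the pan-endocrine genes above. Pax6, which activates proglucagon transcription, had 19.1 and 10.1 in vehicle against 39.2, 111 and 179.8 in EB, and its log2 fold change was 2.64 ± 0.68 (limma adjusted p = 0.234). Rfx6, an endocrine lineage factor, had a log2 fold change of 3.64 ± 0.89, Etv1 2.35 ± 0.69 and Foxa2 1.46 ± 0.42. Cdx2, the intestinal identity factor, had the opposite sign at -1.10 ± 0.36, with 14702 in vehicle replicate 2 against 3725 to 5330.5 in the other L-cell libraries. The median of the 12 was 1.89 in L cells and -0.74 in EC cells, where Foxa2 had 88.9 and 302 in vehicle and 0, 0, 48.4 and 30.4 in EB.

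Of the 14 nutrient sensing genes, 12 passed the filter in L cells, but only 5 of these were at 10 or more in both vehicle libraries, so that some could pass through EB libraries alone. The median log2 fold change of the 12 was 2.45, which that filter could raise. Of the 5, the fatty acid receptor genes Ffar2 and Ffar4, the glucose transporter gene Slc5a1 and the calcium-sensing receptor gene Casr had log2 fold changes of 0.21, 0.13, 0.045 and 0.13, and Abcc8 had 2.86. Gpr119, a receptor of fatty acid amides that triggers release of glucagon-like peptide 1, had 43.6 and 0 in vehicle and 52.3, 259 and 248 in EB. Abcc8, a subunit of the ATP-sensitive potassium channel, had 145 and 23.5 in vehicle and 156, 553 and 949 in EB. In EC-cell libraries the median was -0.65 over 9 genes. Gpr119, Ffar1 and Ffar2, receptors of lipids and short-chain fatty acids, had log2 fold changes of -4.62 ± 2.39, -3.65 ± 2.14 and -0.97 ± 0.67. Gpr119 had 64.8 and 178 in vehicle and 0, 0, 210 and 0.8 in EB. Ffar1 had 12.5 and 76.1 in vehicle and 0, 0, 42.3 and 0 in EB. The groups overlapped for each of these receptors. The 3 genes of the list with log2 fold changes above 0 were Agtr1a at 2.35 ± 2.02, Slc5a1 at 0.71 ± 0.56 and Gpbar1 at 0.015 ± 2.29.

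**Figure D5:**
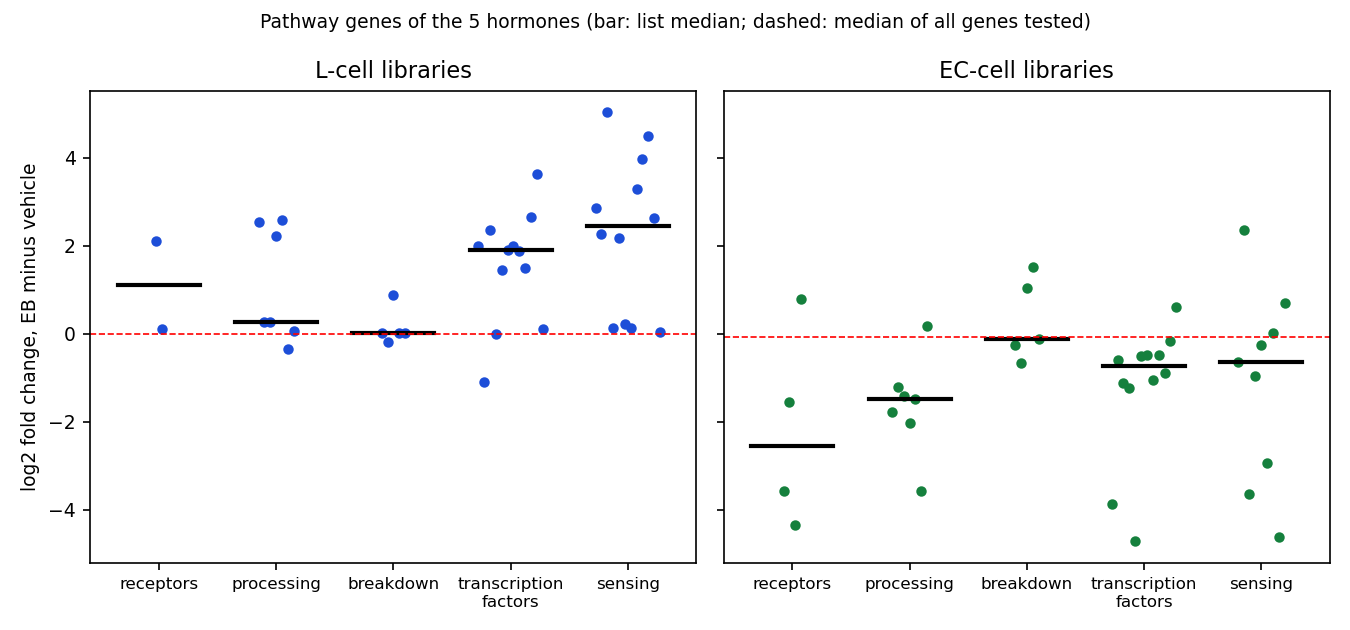
Log2 fold change (EB minus vehicle) of each tested gene of 5 pathway lists in L-cell (left) and EC-cell (right) libraries, with a bar at each list's median and a dashed line at the median of all genes tested. Medians of transcription factor genes are 1.89 in L cells and -0.74 in EC cells, and those of breakdown genes are 0.018 and -0.11.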

How the data were processed

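Full-length cDNA (SMART-Seq HT) was tagmented with Nextera XT, per the labels' protocols. The tools were STAR, featureCounts and DESeq2 on mm10, per the submitters' processing notes, with no versions. Values deposited by the authors form one table per cell type and are signal: read counts per gene divided by a size factor. All values above 0 were whole multiples of a step, to within 0.001 of a read (100% of them), so reads were recovered.

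Genes at 10 or more in at least 2 libraries of a table were tested with limma 3.58.1 in R 4.3.3, with a trend, on log2(value + 1), which understates changes of low genes; an adjusted p under 0.05 (Benjamini-Hochberg, all genes) was a call. The cell types were compared through within-table differences over all 11 libraries. Intervals of fold changes are limma's. Ratios used exact permutation tests. Alternatives were edgeR 4.0.16 and DESeq2 1.42.0, run on the recovered reads, other pseudocounts, filters and scalings, a replicate block and left-out libraries. The code was checked on simulated data. Named genes were the 5 hormones, Pyy, pathway genes called or, at a mean of 50 or more, with groups that do not overlap, else up to 3 per list by smallest p, and the 3 nearest patterns per hormone. Glp1r, Pcsk1, Dpp4, Ffar4, Slc5a1, Casr, Agtr1a, Gpbar1 and, in L cells, Ffar2 were named after their values were seen. The hormones, lists and left-out EC libraries were chosen with earlier results of these data known. In GENCODE M21 no other gene overlaps any of the 5.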

Additional observations from a re-analysis of the deposited data

Results flagged for a closer look

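Among the EC-cell EB libraries, Cck in replicate 3 stood far above the other 3 libraries of its group, at 744 normalised counts against 119 to 176. It was the 1 value flagged among 15 sets of 4 EB libraries examined for a library far from the rest (counts and ratios of the 5 hormones). The limit used would flag about 1 in 20 sets of normally distributed values by chance. Counts were examined off the log scale, where that rate may not hold. Gcg, Nts and Sct were also highest among EB libraries in replicate 3, at 27529, 4092 and 2624, without passing the same limit.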

How the results depend on the processing

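The signs of all 5 hormones in L cells, and of the difference between cell types, held under every alternative run. L-cell calls numbered 139 with no filter, 13 with quantile normalisation, 0 in edgeR, 519 in DESeq2, 56 with the replicate block and 0 to 92 with a library left out (92 and 53 without vehicle replicates 1 and 2, and 0 without each EB library). Insl5 passed with no filter (3.19, adjusted p = 0.0197) and in DESeq2 (3.28), as did Cck in DESeq2 (2.44). EC-cell calls numbered 15 in DESeq2, 24 with the replicate block and 0 without each EB library. Nts passed there under the replicate block (-6.06, limma adjusted p = 0.0472). A replicate number found in only 1 group adds nothing to such an estimate. The value for Nts thus rested on EB replicates 1 and 2, with 3 and 144 reads. It left aside EB replicates 3 and 4, with 4735 and 2278 reads. In L cells the block likewise left EB replicate 3 aside. The numbers are shared by only 2 replicates per pair of groups. Deviations of these replicates correlated at 0.157 and 0.148 in L cells and at 0.0361 and 0.00685 in EC cells. With 2 vehicle libraries, each EB library has the same correlation with opposite sign to the other vehicle library. The check therefore cannot decide whether the numbers mark a pairing. Calls of the difference numbered 32 in DESeq2 and 0 to 270 with a library left out, 270 without EC vehicle replicate 1. With a library left out, Gcg in EC cells ran from -2.43 to 0.76, and Nts there was 0.39 without EB replicates 1 and 2. Log2 differences of ratios to Pyy then ran in L cells from -1.19 to 0.17 (Gcg), -0.81 to 0.50 (Nts) and -0.90 to 0.20 (Cck), and in EC cells from -0.038 to 1.01 (Gcg), -2.66 to 0.34 (Nts), -0.55 to 0.82 (Cck) and -0.44 to 0.83 (Sct). Ratios to the pan-endocrine genes ran in L cells from -1.76 to -0.14 (Gcg), -1.13 to -0.070 (Nts), -1.46 to -0.12 (Cck), -1.33 to -0.59 (Sct) and 0.13 to 0.47 (Insl5), and in EC cells from -1.22 to 1.59 (Gcg), -0.82 to 0.59 (Cck) and -0.81 to 0.71 (Sct). With Chga alone as reference, Insl5 in L cells was -0.83, and Cck and Sct in EC cells 0.17 and 0.23; Sct there was 0.0016 with a pseudocount of 4. The cause of these changes was not tested. The number of hormones with separated groups in L cells was 4 or 5 with a library left out, an alternative added after seeing the data. Counts of 1 to 8 reads limit Insl5 and Nts in EC cells.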
